A study of Homo sapiens with 12 samples.

Results

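The 8 genes described here belong to bone morphogenetic protein (BMP) signalling and were measured in 2 prostate cancer cell lines exposed to the curcumin analogue MS13. They were the ligand genes BMP2, BMP4, BMP6 and BMP7, the pseudoreceptor gene BAMBI and the inhibitor of DNA binding genes ID1, ID2 and ID4. They were chosen by name for these roles, with earlier results of these data known. All 8 were present among the 770 genes of the panel, and all 8 passed the filter on low counts that left 684 genes for testing.

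BMPs are secreted proteins of the transforming growth factor beta family that bind pairs of serine/threonine kinase receptors. The receptors phosphorylate SMAD proteins, which join SMAD4 and, in the nucleus, raise the transcription of target genes. Of these targets, the ID genes are most often used as a readout. ID proteins cannot bind DNA and hold E proteins such as TCF3 in inactive dimers, and BMP signalling is studied in prostate cancer for its link with metastasis to bone.

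PC-3 and DU 145 are established human prostate cancer lines that grow without androgen, labelled as taken from a bone and a brain metastasis. The 4 groups were PC-3 cells given 16 µM MS13, a diarylpentanoid, for 24 h, PC-3 control cells given medium with DMSO, DU 145 cells given the same MS13 exposure and DU 145 control cells given medium with DMSO, each with 3 samples of total RNA. RNA was hybridised to the nCounter PanCancer Pathway Panel, in which a colour-coded reporter probe is counted for each transcript without amplification. Each line grew in a medium of its own, so line and medium cannot be told apart, and in these bulk samples fewer cells with a transcript and less of it per cell cannot be told apart. At a dose close to 16 µM and 24 h, the study counted fewer viable and more apoptotic DU 145 cells than in control. It reported a similar trend in PC-3 cells. The part of cell death in the values below was not tested.

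Total counts over the panel genes ran from 437471 to 604629 per sample. Counts were divided by a housekeeping factor, the geometric mean of the 40 housekeeping genes of a sample relative to all samples, and the results are called normalized counts. The factor was 0.773 to 0.866 in MS13-treated PC-3 cells, 0.910 to 0.992 in PC-3 control cells, 1.10 to 1.37 in MS13-treated DU 145 cells and 0.931 to 1.06 in DU 145 control cells. The background limit, the mean of the 8 negative probes plus 2 SD, averaged 33.6, 27.9, 20.2 and 27.1 normalized counts in the same groups. PC-3 control replicates 2 and 3 could not be told apart from sampling noise (chi-square per degree of freedom 1.04, p = 0.202, against 1.17 to 2.21 in the other 11 pairs). Their counts were added as 1 sample, so that n = 2 in PC-3 control cells and n = 3 elsewhere. CDH1, an epithelial cadherin, lay above the limit in every group, and 3 leukocyte genes and 4 stromal genes lay under it in every group.

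A gene was called changed at an adjusted p of 0.05 or less with at least 1 of the compared groups above its limit. The adjusted p came from the edgeR quasi-likelihood test over the 684 genes with the Benjamini-Hochberg adjustment, and each SE below is that of the log2 fold change. In MS13-treated PC-3 cells 3 of the 8 genes rose (ID2, BMP4 and BAMBI) and 1 fell (ID1), where 19.2% and 36.7% of all tested genes rose and fell. In MS13-treated DU 145 cells 3 rose (ID2, BMP6 and BAMBI) and 3 fell (ID1, BMP4 and BMP7), where 18.3% rose and 41.2% fell. The median log2 fold change of the 8 genes was 0.50 in PC-3 and 0.32 in DU 145 cells, beside -0.09 and -0.34 over all tested genes. With 8 genes, these shares and medians describe the genes and test nothing. ID1 fell and ID2 and BAMBI rose in both lines, BMP4 rose in PC-3 and fell in DU 145 cells, and BMP6 and BMP7 were above background only in DU 145 cells.

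**Figure D1:**
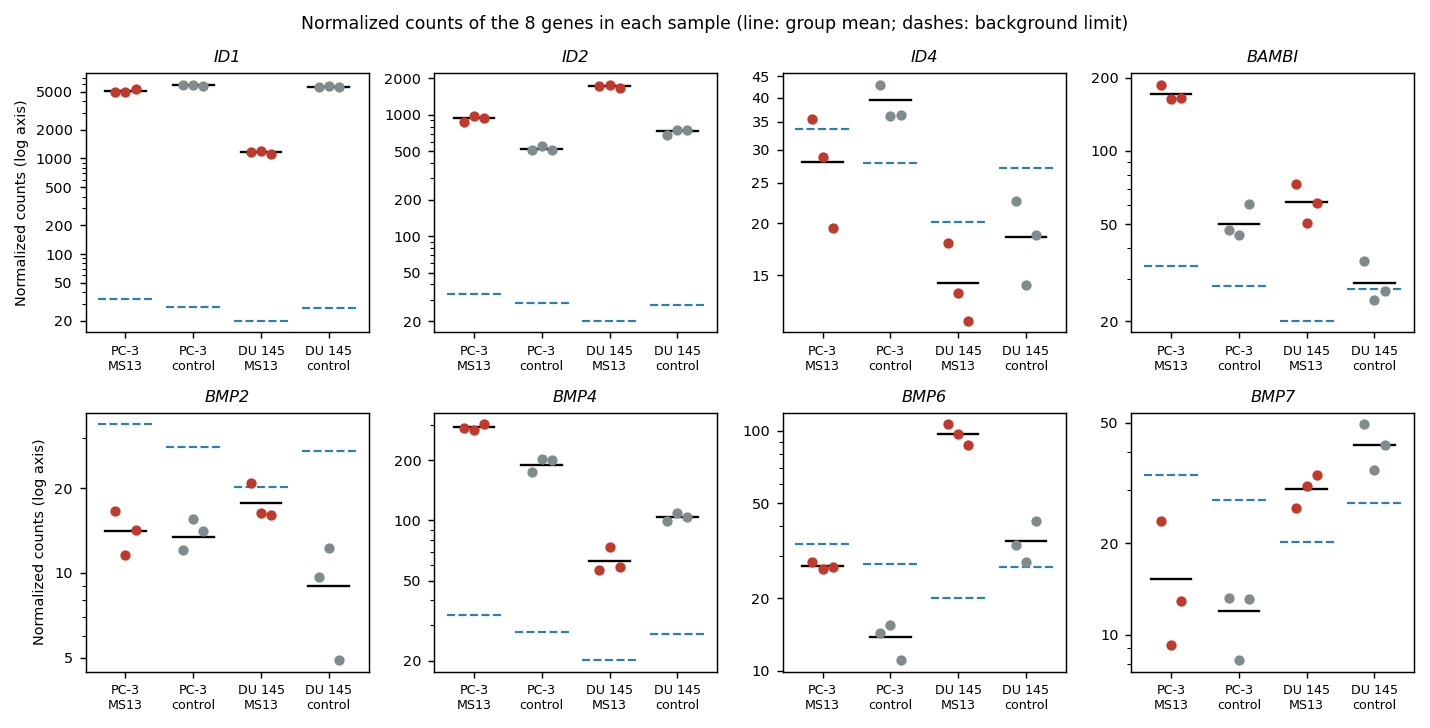
Normalized counts of the 8 genes on log axes, 1 panel per gene. Points are samples (red, MS13; grey, control), black lines are group means and blue dashes are the background limits of the groups. ID1 and ID2 lie far above background in all 4 groups, BMP2 group means lie under it in all 4, and the ID4 mean lies above it only in PC-3 control cells.

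Among the ligands, BMP4, which acts in bone formation and early patterning, moved in opposite directions. MS13-treated PC-3 cells had 290, 283 and 302 normalized counts and PC-3 control cells 175, 203 and 201. All MS13 samples lay above all control samples. BMP4 rose 1.51-fold (log2 fold change 0.60, SE 0.09, adjusted p = 1.4e-08). MS13-treated DU 145 cells had 56.6, 73.5 and 58.4 normalized counts and DU 145 control cells 98.9, 109 and 104. Here all MS13 samples lay below all control samples, and BMP4 fell 1.67-fold (log2 fold change -0.74, SE 0.13, adjusted p = 2.7e-07). The separation in DU 145 cells was also present in the raw counts, 76, 81 and 80 in MS13-treated and 92, 115 and 106 in control cells. The size of the fall depended on scaling, and was -0.41 on the log2 scale with TMM, which takes its factors from all panel genes. The response of BMP4 differed between the lines by 1.34 on the log2 scale, PC-3 minus DU 145 (SE 0.16, adjusted p = 9.8e-12). BMP4 was also higher in PC-3 than in DU 145 cells at both states, by 4.68-fold with MS13 (291 ± 9.40 and 62.8 ± 9.25, SD, n = 3 each, edgeR adjusted p = 1.8e-32). The difference was 1.84-fold in control cells (188 ± 19.0, n = 2, and 104 ± 4.98, n = 3, edgeR adjusted p = 1.1e-11).

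BMP6, a ligand that in liver sets hepcidin expression, stood above background only in DU 145 cells. MS13-treated DU 145 cells had 107, 97.0 and 87.5 normalized counts, against 33.3, 28.4 and 42.3 in DU 145 control cells. The lowest MS13 sample was above the highest control sample, and BMP6 rose 2.80-fold (log2 fold change 1.48, SE 0.15, adjusted p = 1.1e-14). This was the largest rise in DU 145 cells among the 8 genes. With the mean of the negative probes subtracted from each sample, which was not tested, it was 4.28-fold (log2 2.10). In PC-3 cells the counts were 28.5, 26.6 and 27.2 with MS13 and 14.3, 15.5 and 11.1 in control cells, all under the limits of their samples. The raw counts there were 21 to 24 with MS13 and 11 to 15 in control cells, and the adjusted p of 0.0012 for this pair rests on values that cannot be told apart from background. The responses of the lines differed by -0.48 on the log2 scale (SE 0.34, adjusted p = 0.25), which did not pass. It passed with TMM (-0.78, adjusted p = 0.044) and with positive control probes as the scale (-0.83, adjusted p = 0.035). Each of these differences uses the PC-3 values at background, so whether the BMP6 responses differed cannot be read from them.

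BMP7, a ligand studied in kidney and in epithelial differentiation, was likewise above background only in DU 145 cells. MS13-treated DU 145 cells had 26.1, 30.8 and 33.6 normalized counts and DU 145 control cells 49.4, 35.0 and 42.3. The highest MS13 sample lay just below the lowest control sample, and BMP7 fell 1.39-fold (log2 fold change -0.48, SE 0.20, adjusted p = 0.033). The raw counts overlapped, at 35, 34 and 46 with MS13 and 46, 37 and 43 in control cells. The call was lost with TMM (adjusted p = 0.55), with the 10 most stable housekeeping genes (0.17), with positive control probes (0.41) and with DESeq2 (0.15). It was also lost without DU 145 control replicate 1 (adjusted p = 0.19), without control replicate 3 (0.074) or without MS13 replicate 1 (0.14). In PC-3 cells BMP7 had 23.7, 9.24 and 12.9 normalized counts with MS13 and 13.2, 8.25 and 13.1 in control cells. These were all under the limits of their samples. The difference between the responses, 0.89 on the log2 scale, did not pass (SE 0.41, adjusted p = 0.067). It passed without DU 145 control replicate 2 (1.01, adjusted p = 0.041) or without PC-3 MS13 replicate 2 (1.16, adjusted p = 0.021). All of these values rest on PC-3 counts under the limits, so they cannot show whether the BMP7 responses differed.

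BMP2, an osteogenic ligand close to BMP4 in sequence, was at background. Its normalized counts were 16.6, 11.6 and 14.2 in MS13-treated and 12.1, 15.5 and 14.1 in control PC-3 cells. The DU 145 samples had 20.9, 16.3 and 16.0 with MS13 and 9.67, 12.3 and 4.92 in control cells. Of the 12 samples, 1 reached the limit of its own sample, MS13-treated DU 145 replicate 1. The DU 145 pair passed the test (log2 fold change 0.98, adjusted p = 0.0083) with both means under their limits. BMP2 was therefore not called, and the value is not read as the size of a change.

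**Figure D2:**
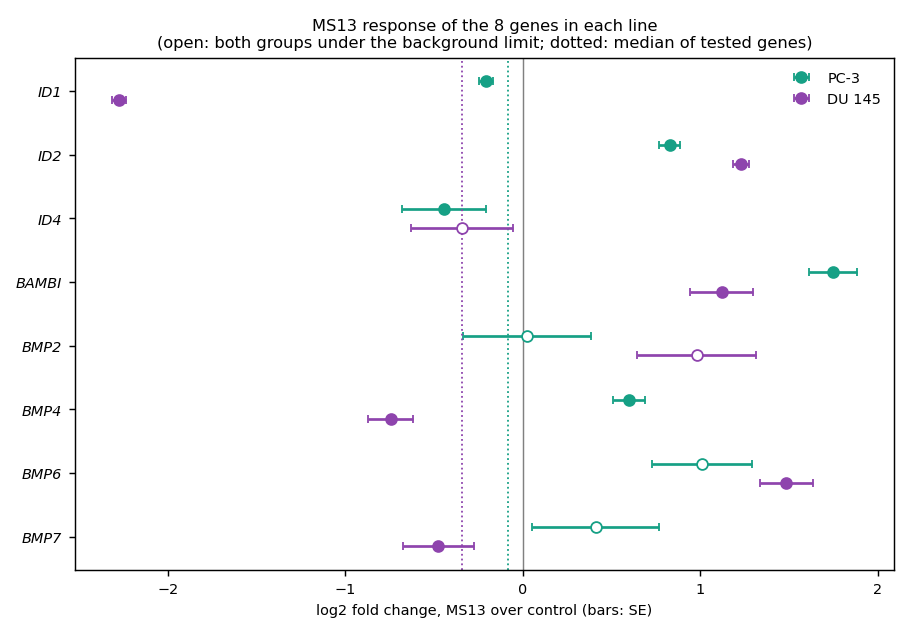
Log2 fold change, MS13 over control, of the 8 genes in PC-3 (green) and DU 145 (purple) cells. Bars are SE, open points have both groups under the background limit and dotted lines are the medians of all tested genes. BMP4 lies right of 0 in PC-3 (0.60) and left of it in DU 145 cells (-0.74), while ID2 and BAMBI lie right of 0 in both lines.

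BAMBI encodes a transmembrane protein that resembles a type I receptor without its kinase and damps BMP, activin and TGF-beta signalling. It rose in both lines. MS13-treated PC-3 cells had 186, 164 and 164 normalized counts and PC-3 control cells 47.3, 45.4 and 60.5. All MS13 samples exceeded all control samples by a wide margin, a 3.36-fold rise (log2 fold change 1.75, SE 0.14, adjusted p = 9.8e-20), the largest among the 8 genes in PC-3 cells. MS13-treated DU 145 cells had 73.0, 50.8 and 61.3 normalized counts, against 35.5, 24.6 and 26.6 in DU 145 control cells. The groups did not overlap, and the rise was 2.17-fold (log2 fold change 1.12, SE 0.18, adjusted p = 4.2e-08). Only DU 145 control replicate 1 reached the limit of its own sample among the DU 145 controls. The group mean of 28.9 lay just above the limit of 27.1. With the mean of the negative probes subtracted from each sample, an untested setting chosen after seeing the data, the rise was 4.55-fold in PC-3 (log2 2.19) and 3.52-fold in DU 145 cells (log2 1.82). The rise differed by 0.63 on the log2 scale between the lines, PC-3 minus DU 145 (SE 0.24, adjusted p = 0.023). This difference no longer passed with TMM (0.32, adjusted p = 0.27), the 10 most stable housekeeping genes (0.50, 0.082), positive control probes (0.28, 0.36) or DESeq2 (0.65, 0.074). With background subtracted it was 0.37, untested. It also did not pass without replicate 1 of the MS13-treated (0.56, adjusted p = 0.054) or replicate 2 of the control PC-3 cells (0.54, 0.066), or without replicate 2 of the MS13-treated (0.52, 0.061) or replicate 1 of the control DU 145 cells (0.46, 0.16).

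ID1, a direct BMP target in many cell types that is linked with growth and survival, was the most changed of the 8 genes in DU 145 cells. In PC-3 cells the normalized counts were 4950, 4921 and 5276 with MS13 and 5860, 5840 and 5786 in control cells. All MS13 samples lay below all control samples, and the fall was 1.16-fold (log2 fold change -0.21, SE 0.04, adjusted p = 1.7e-06). It was -0.17 to -0.27 on the log2 scale over the 21 alternatives tested for it and passed in each. MS13-treated DU 145 cells had 1182, 1193 and 1122 normalized counts and DU 145 control cells 5618, 5689 and 5623. The groups were far apart, and ID1 fell 4.85-fold (log2 fold change -2.28, SE 0.04, adjusted p = 2.9e-62). The response differed between the lines by 2.07 on the log2 scale (SE 0.06, adjusted p = 3.3e-47). Control cells of the lines had close levels, 5835 ± 37.0 (SD, n = 2) normalized counts in PC-3 and 5644 ± 39.4 (SD, n = 3) in DU 145 cells. That difference of 0.05 on the log2 scale did not pass (SE 0.04, adjusted p = 0.28), and its sign turned with TMM (-0.03), the 10 most stable housekeeping genes (-0.02) and positive control probes (-0.04). With MS13, ID1 was 4.33-fold higher in PC-3 than in DU 145 cells (log2 fold change 2.12, SE 0.04, adjusted p = 1.6e-59).

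ID2, which binds E proteins and also the retinoblastoma protein, moved opposite to ID1. MS13-treated PC-3 cells had 876, 986 and 949 normalized counts and PC-3 control cells 515, 557 and 515. All MS13 samples lay above all control samples, and ID2 rose 1.78-fold (log2 fold change 0.83, SE 0.06, adjusted p = 1.1e-21). MS13-treated DU 145 cells had 1711, 1757 and 1672 normalized counts, against 687, 753 and 747 in DU 145 control cells. This was again a full separation, with a 2.34-fold rise (log2 fold change 1.23, SE 0.05, adjusted p = 1.4e-38). The rise was smaller in PC-3 than in DU 145 cells by 0.40 on the log2 scale (PC-3 minus DU 145 -0.40, SE 0.08, adjusted p = 6.0e-06). That difference was -0.70 with TMM and -0.74 with positive control probes. ID2 was lower in PC-3 than in DU 145 cells at both states, at 937 ± 55.8 and 1714 ± 42.9 with MS13 (SD, n = 3 each, log2 fold change -0.87, edgeR adjusted p = 2.8e-29). In control cells it was at 525 ± 14.7 (n = 2) and 729 ± 36.9 (n = 3, log2 fold change -0.47, edgeR adjusted p = 6.9e-11).

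ID4, a family member that opposes other ID proteins in some settings, was near background. Its normalized counts were 35.6, 28.9 and 19.4 in MS13-treated and 42.9, 36.1 and 36.3 in control PC-3 cells. Only the control mean of 39.5 lay above its limit, and the difference did not pass (log2 fold change -0.45, SE 0.24, adjusted p = 0.099). It passed with positive control probes (-0.52, adjusted p = 0.048) and without PC-3 MS13 replicate 1 (-0.65, adjusted p = 0.036). ID4 in DU 145 cells had 17.9, 13.6 and 11.7 normalized counts with MS13 and 22.6, 14.2 and 18.7 in control cells, all under the limits of their samples. The responses of the lines differed by -0.10 on the log2 scale (SE 0.38, adjusted p = 0.83), which did not pass. With the DU 145 values at background, this test could not show whether the ID4 responses differed.

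The ratio of ID1 to ID2 raw counts within a sample does not depend on how samples are scaled, and was chosen after the values of both genes had been seen. It was 5.65, 4.99 and 5.56 in MS13-treated and 11.4, 10.5 and 11.2 in control PC-3 cells, and 0.691, 0.679 and 0.671 in MS13-treated and 8.18, 7.55 and 7.52 in control DU 145 cells. The probes of different genes need not count equally well, so the ratio is read between samples only. It was 2.06-fold lower with MS13 in PC-3 cells (exact two-sided permutation p = 0.20) and 11.4-fold lower with MS13 in DU 145 cells (exact two-sided permutation p = 0.10). Both are the smallest p these sample numbers allow, so neither could pass. On the log2 scale the change was -1.04 in PC-3 and -3.51 in DU 145 cells, a difference of 2.47.

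**Figure D3:**
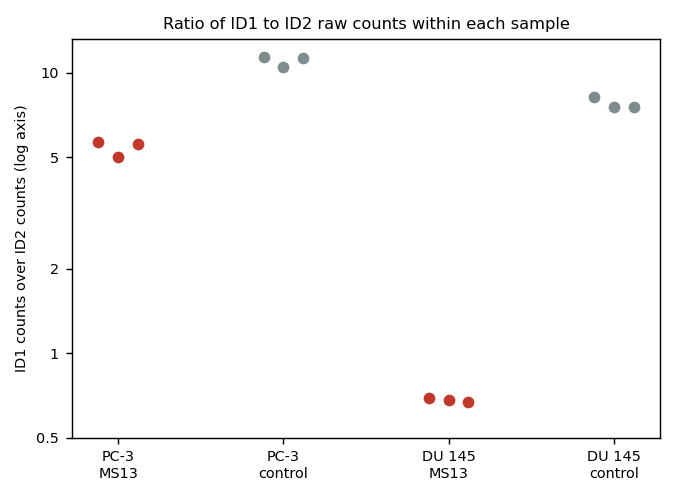
Ratio of ID1 to ID2 raw counts in each sample, on a log axis, for MS13-treated (red) and control (grey) cells. The MS13-treated samples lie below the controls of their line, at 4.99 to 5.65 in PC-3 and 0.671 to 0.691 in DU 145 cells.

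Promoter sequence is shown for ID1 and ID2, which moved in opposite directions in both lines, and for BAMBI, which rose in both. The windows span 250 bases before to 50 bases after a RefSeq start site in GRCh38.p14, and 6 of the 8 genes matched a window. Motifs searched on both strands were GGCGCC and GTCTAGAC, to which SMAD proteins bind, the shorter SMAD motif GTCTG, the cyclic AMP response element TGACGTCA and the AP-1 site TGAGTCA. No motif contains another, and capitals mark matches. All 3 windows lie on the plus strand, ID1 at chr20:31605039-31605338, ID2 at chr2:8681806-8682105 and BAMBI at chr10:28677271-28677570.
ID1: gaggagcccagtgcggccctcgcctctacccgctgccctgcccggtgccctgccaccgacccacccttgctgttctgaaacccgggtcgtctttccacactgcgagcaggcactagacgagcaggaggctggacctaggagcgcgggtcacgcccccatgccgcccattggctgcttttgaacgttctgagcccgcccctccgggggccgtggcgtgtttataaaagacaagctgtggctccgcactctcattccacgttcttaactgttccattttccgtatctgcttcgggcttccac
ID2: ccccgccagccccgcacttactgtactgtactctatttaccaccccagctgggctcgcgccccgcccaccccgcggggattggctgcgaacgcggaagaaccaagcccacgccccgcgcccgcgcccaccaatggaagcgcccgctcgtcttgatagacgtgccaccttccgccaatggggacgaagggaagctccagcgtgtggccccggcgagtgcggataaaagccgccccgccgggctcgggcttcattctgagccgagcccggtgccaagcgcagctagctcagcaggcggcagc
BAMBI: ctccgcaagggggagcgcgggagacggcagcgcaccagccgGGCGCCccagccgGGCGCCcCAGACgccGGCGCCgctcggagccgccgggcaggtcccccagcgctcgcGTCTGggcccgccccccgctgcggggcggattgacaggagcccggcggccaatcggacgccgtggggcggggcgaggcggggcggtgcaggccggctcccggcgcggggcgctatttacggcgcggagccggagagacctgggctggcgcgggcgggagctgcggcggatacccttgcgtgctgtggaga

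The ID1 and ID2 windows held none of these motifs, and sequence outside the windows was not searched. The BAMBI window held GGCGCC 3 times, starting at -209, -196 and -181 from the start site, and GTCTG or its reverse complement 2 times, at -189 and -140. The BMP4 windows, for 3 start sites, held GGCGCC in 1 of them and GTCTG in each, the ID4 window held GTCTG once, and the BMP6 window held none. Among 35116 RefSeq promoter windows, 19.2% held GGCGCC, 45.3% GTCTG, 0.202% GTCTAGAC, 1.85% TGACGTCA and 4.95% TGAGTCA. A match is a description of the letters, and binding was not measured.

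The responses of 4 of the 8 genes differed between the lines, where 47.2% of all tested genes did. The difference was positive, PC-3 minus DU 145, for ID1, BMP4 and BAMBI and negative for ID2. Between control cells, 3 of the 8 genes were higher in PC-3 (BMP4, BAMBI and ID4), where 33.3% of tested genes were, and 3 were lower (ID2, BMP6 and BMP7), where 29.1% were. With MS13, 3 were higher in PC-3 (ID1, BMP4 and BAMBI), where 39.0% were, and 3 were lower (ID2, BMP6 and BMP7), where 25.3% were. BAMBI averaged 172 normalized counts in MS13-treated PC-3 and 61.7 in MS13-treated DU 145 cells (2.75-fold, adjusted p = 9.0e-19), and 50.1 and 28.9 in the control cells of the same lines (1.78-fold, adjusted p = 0.00013). Where PC-3 cells were at background, only a bound could be set from the limit. BMP6 was at least 2.89-fold lower in PC-3 than in DU 145 cells with MS13 and at least 1.24-fold lower in control cells, and BMP7 was at least 1.51-fold lower in control cells. No bound could be set for BMP7 with MS13, since its DU 145 mean of 30.2 lay under the PC-3 limit. ID4 was at least 1.46-fold higher in PC-3 than in DU 145 control cells. The comparisons share groups, so these counts are not independent of each other.

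Of the genes listed for the rest of the pathway, 13 were on the panel and 12 were tested. In MS13-treated PC-3 cells 2 of the 12 rose and 3 fell, where 19.2% and 36.7% of all tested genes did. In MS13-treated DU 145 cells 3 rose and 3 fell, where 18.3% and 41.2% did. Among these 12, 4 had all group means under the limits (BMP5, BMP8A, SOST and CREBBP). The median log2 fold change of the 12 was 0.02 in PC-3 and -0.33 in DU 145 cells, beside -0.09 and -0.34 over all tested genes.

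TCF3, an E protein that ID proteins sequester, fell in both lines. It had 157, 163 and 139 normalized counts in MS13-treated and 436, 493 and 418 in control PC-3 cells, a 2.92-fold fall (log2 fold change -1.55, SE 0.09, adjusted p = 6.2e-28). DU 145 samples had 465, 490 and 462 with MS13 and 1233, 1350 and 1259 in control cells, a 2.72-fold fall (log2 fold change -1.44, SE 0.05, adjusted p = 6.1e-41). The groups did not overlap in either line, and the difference between the lines did not pass (-0.10, SE 0.10, adjusted p = 0.42), although it passed with TMM (-0.41, adjusted p = 0.00062) and with positive control probes (-0.45, adjusted p = 0.00044). NOG encodes noggin, a secreted protein that binds BMPs and blocks them. It had 94.9, 78.6 and 82.8 normalized counts in MS13-treated and 186, 211 and 173 in control PC-3 cells, and 35.8, 40.8 and 31.4 in MS13-treated and 57.0, 58.7 and 56.1 in control DU 145 cells. It fell in both, by 1.15 (SE 0.12, adjusted p = 1.3e-14) and by 0.68 (SE 0.16, adjusted p = 0.00016) on the log2 scale in the same order of lines, with no overlap. The fall in DU 145 cells no longer passed with TMM (-0.35, adjusted p = 0.053).

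SMAD9 encodes a SMAD that BMP receptors phosphorylate. In PC-3 cells it had 66.5, 62.4 and 67.3 normalized counts with MS13 and 69.3, 59.8 and 65.5 in control cells, which overlapped (log2 fold change 0.01, SE 0.16, adjusted p = 0.96). In DU 145 cells it had 41.0, 56.2 and 48.9 with MS13 and 143, 134 and 146 in control cells, and it fell 2.91-fold (log2 fold change -1.54, SE 0.12, adjusted p = 2.6e-19). The difference between the responses was 1.55 (SE 0.20, adjusted p = 5.1e-10). SMAD4, the shared partner, had log2 fold changes of 0.03 in PC-3 and -0.01 in DU 145 cells and passed in neither (SE 0.07 each). In DU 145 cells it was 0.32 with TMM (adjusted p = 9.9e-06) and 0.27 with positive control probes (adjusted p = 0.00070), so no direction is given for it. FST encodes follistatin, which binds activins and some BMPs. In PC-3 cells it had 4671, 4665 and 4571 normalized counts with MS13 and 9634, 9823 and 9845 in control cells, a 2.10-fold fall (log2 fold change -1.07, SE 0.04, adjusted p = 5.2e-41). In DU 145 cells it had 32.1, 24.5 and 23.3 with MS13, just above the limit, and 10.7, 8.52 and 12.8 in control cells, under it. That rise passed (adjusted p = 1.1e-05) but its size is not fixed. In control cells FST was at least 359-fold higher in PC-3 than in DU 145 cells.

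The activin receptor gene ACVR2A, which also serves BMPs, rose by 0.42 in PC-3 (SE 0.10, adjusted p = 0.00013) and 0.33 in DU 145 cells (SE 0.10, adjusted p = 0.0030) on the log2 scale. EP300, a histone acetyltransferase that SMADs recruit, rose by 0.48 (SE 0.07, adjusted p = 2.6e-09) and 0.23 (SE 0.06, adjusted p = 0.00059) in the same order of lines. With TMM the rises were 0.45 in PC-3 and 0.66 in DU 145 cells for ACVR2A. For EP300 they were 0.51 and 0.56, so which line rose more depended on scaling for both genes. The BMP receptor gene BMPR1B passed in neither line (log2 fold changes -0.21 and 0.32). It passed in DU 145 cells with TMM (0.65, adjusted p = 0.0023), the 10 most stable housekeeping genes (0.48, 0.033) and positive control probes (0.60, 0.0055), and in PC-3 cells with positive control probes (-0.28, 0.044). It averaged 106 normalized counts in MS13-treated and 120 in control PC-3 cells, and 35.8 in MS13-treated and 28.5 in control DU 145 cells. The DU 145 control mean lay just above the limit of 27.1, and control replicate 2, at 19.9, lay under its own limit of 27.5. MS13-treated and control samples overlapped in both lines for BMPR1B.

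**Figure D4:**
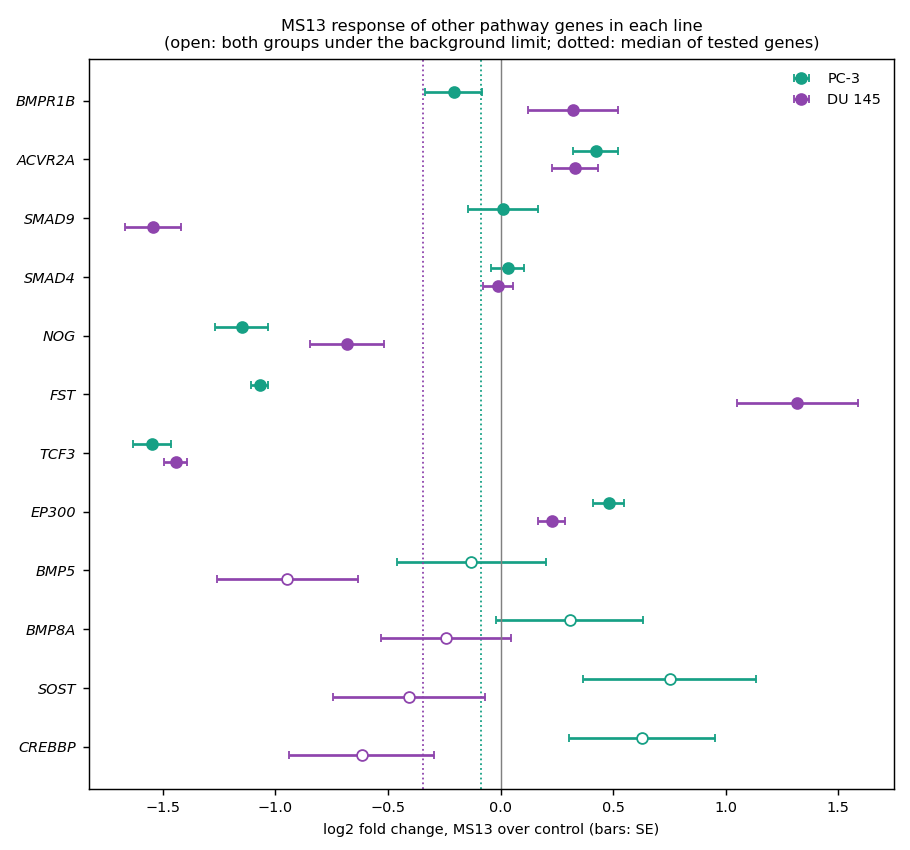
Log2 fold change, MS13 over control, of the 12 other tested pathway genes in PC-3 (green) and DU 145 (purple) cells. Bars are SE, open points have both groups under the background limit and dotted lines are the medians of all tested genes. TCF3 and NOG lie left of 0 in both lines, SMAD9 only in DU 145 (-1.54), and the FST point of DU 145 cells has its control under the limit.

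Across the panel, the genes whose pattern over the 11 samples was most like a member's were found by Pearson's r of log2 normalized counts over 427 candidate genes. The samples share lines and treatments, so these values describe a shared pattern of 4 group levels. ID1 was most like MECOM (r = 0.990), CASP9 (0.981) and CUL1 (0.980), and ID2 most like the cell cycle inhibitor CDKN1A (0.983), GADD45G (0.981) and MAP2K1 (0.971). BMP4 was most like NUPR1 (0.980), BMP6 like POLB (0.982), BAMBI like DUSP10 (0.970), BMP7 like NF1 (0.926) and ID4 like NOTCH3 (0.920).

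Scaling moved all DU 145 responses in the same sense. The median log2 fold change of all tested DU 145 genes was -0.34 with all housekeeping genes, -0.18 with the 10 most stable of them, -0.07 with positive control probes and -0.01 with TMM. In PC-3 cells it was -0.09, -0.05, -0.16 and -0.06 in the same order. With TMM, 188 genes rose and 209 fell in DU 145 cells, against 125 and 282 with all housekeeping genes. Relative to the median with all housekeeping genes, the DU 145 log2 fold change was 1.83 for BMP6, 1.57 for ID2, 1.46 for BAMBI, -0.13 for BMP7, -0.40 for BMP4 and -1.93 for ID1. In PC-3 cells it was 1.83 for BAMBI, 0.91 for ID2, 0.68 for BMP4 and -0.12 for ID1. Under the 4 scalings ID1 lay between -1.95 and -2.28, ID2 between 1.23 and 1.56, BMP6 between 1.48 and 1.81, BAMBI between 1.12 and 1.45 and BMP4 between -0.41 and -0.74 in DU 145 cells. None of these changed direction or lost its call.

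**Figure D5:**
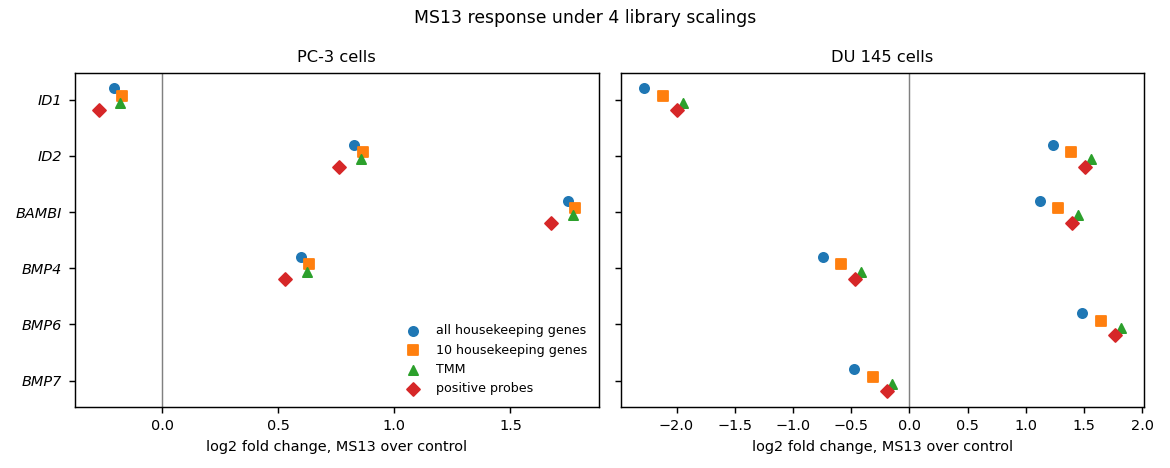
Log2 fold change, MS13 over control, of the called genes in PC-3 (left) and DU 145 (right) cells under 4 ways of scaling the samples, 1 marker each. In DU 145 cells scaling by all housekeeping genes gives the lowest value of each gene, and no gene changes sign. BMP6 and BMP7 are shown only for DU 145 cells, since both groups of PC-3 cells lay under the limits.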

How the data were processed

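The values were raw counts of reporter codes per probe as deposited by the authors, with no normalization or background subtraction and with the 8 negative and 6 positive control probes still listed. The study's methods name nSolver 4.0 with housekeeping genes chosen by geNorm, steps that these counts do not carry. Every fold and ratio printed was computed from the counts and none was deposited. Groups came from the sample labels. The labels and methods name both biological replicates and technical repeats. The spread between samples lay near counting noise in most pairs, so the p-values may measure mostly technical spread. It was wider between replicate 3 and the other MS13-treated PC-3 samples (chi-square per degree of freedom 2.21 and 1.70). At 437471 to 604629 counts per sample, genes near the background limit are measured least precisely.

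The scale of a sample was the geometric mean over its 40 housekeeping genes (smallest count set to 1), which were not tested. Genes with a mean count of at least 10 were fitted with all 4 groups in edgeR 4.0.16 (R 4.3.3, glmQLFit and glmQLFTest), with the Benjamini-Hochberg adjustment applied to 684 genes. The SE was taken as the absolute log2 fold change over the root of its F statistic. Where 1 group was under its background limit, a lower bound of the fold was taken from that limit. The interaction is the PC-3 minus the DU 145 response. Promoter windows were read from RefSeq, and permutation tests used scipy 1.17.1. The method was tested on simulated data.

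The 8 genes, the pathway list and the marker genes were chosen with earlier results of these data known. All 8 are named with every sample, other pathway genes when above background and called in a line, and for likeness the panel genes of highest r with a mean count of at least 50. SMAD4 and BMPR1B are named outside this rule. Alternatives were TMM, the 10 most stable housekeeping genes, positive control probes A to E, DESeq2 1.42.0, a minimum mean of 50, no filter at all, separate fits of the lines, 12 separate samples, a replicate block and each sample left out. Subtraction of the mean negative probe count was added after seeing the data, without a test.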

Additional observations from a re-analysis of the deposited data

Results flagged for a closer look

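The MS13 response of 4 of the 8 genes differed between the lines by the test of the difference itself, where 47.2% of all tested genes did. The count is thus near that of the panel. Each value is PC-3 minus DU 145 on the log2 scale. ID1 had 2.07, as ID1 fell by 0.21 in PC-3 cells and fell by 2.28 in DU 145 cells. BMP4 had 1.34, with a rise in PC-3 and a fall in DU 145 cells. BAMBI had 0.63, with a rise in both lines that was larger in PC-3 cells, and this difference was lost in 8 of its 20 tested alternatives and was 0.37, untested, with background subtracted. ID2 had -0.40, with a rise in both lines that was smaller in PC-3 cells. No group had the 4 samples that a search for outlying samples needs.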

How the results depend on the processing

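Of 620 tested alternative values, from 7 of the 8 genes and from comparisons with a group above background, 593 kept their direction and their side of the threshold, 15 lost the call, 6 gained it and 6 turned sign without passing. The difference in ID1 between PC-3 and DU 145 control cells turned to -0.028 with TMM, -0.018 with the 10 most stable housekeeping genes and -0.039 with positive control probes. The difference of the ID4 responses ranged from -0.31 to 0.098 when samples were left out in turn. With a minimum mean of 50, 4 of the 8 genes were tested, and 3 instead of 6 differed between PC-3 and DU 145 control cells, since fewer genes were tested. Of all 431 genes tested there, 191 were higher and 178 lower in PC-3 control cells. Leaving out 1 sample gave 4 to 5 changed genes in PC-3 cells, 5 to 6 in DU 145 cells, 3 to 5 whose response differed, and 6 in both comparisons between lines. The 5 differing responses include BMP7, whose PC-3 counts were under the limits. Over all 680 to 687 tested genes, 123 to 134 rose and 243 to 256 fell in PC-3 cells. In DU 145 cells 117 to 125 rose and 270 to 283 fell. Responses were higher in PC-3 cells for 187 to 202 genes and lower for 112 to 129. Between controls, 222 to 230 genes were higher in PC-3 and 190 to 200 lower. With MS13 these were 257 to 268 and 167 to 174. Of 396 tested alternative values of the 8 other pathway genes above background, 378 kept direction and call. SMAD4 in DU 145 cells turned to 0.32 with TMM, 0.15 with the 10 most stable housekeeping genes and 0.27 with positive control probes, and ranged from -0.071 to 0.086 with samples left out. With positive control probes the PC-3 values turned to -0.036 for SMAD4 and -0.060 for SMAD9, and with samples left out they ranged from -0.0055 to 0.056 and from -0.043 to 0.060. The cause was not tested. With the mean of the negative probes subtracted, chosen after seeing the data and not tested, none of 22 values of 6 of the genes turned sign and 2 moved by over 1.5 times (BAMBI and BMP6 in DU 145 cells, 3.52-fold and 4.28-fold). Of 17 values of the other pathway genes 2 turned, SMAD4 in DU 145 (0.0019) and SMAD9 in PC-3 cells (-0.038). Counts near those of the negative probes limit what could be read for BMP2, for ID4, and for BMP6 and BMP7 in PC-3 cells.

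Same-numbered samples did not deviate together (r from -0.20 to 0.02 in PC-3 and from -0.05 to 0.04 in DU 145 cells, over 431 genes). Because the spread between most samples lay near counting noise, these values cannot decide whether the numbers pair the samples. With the replicate block and 12 separate samples, 4 genes changed in PC-3 cells, 6 changed in DU 145 cells, 4 responses differed and 6 genes differed in both comparisons between lines, and no call on the 8 genes changed.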
